A study of Homo sapiens with 29 samples.

Results

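The difference between 2 lymphoma cell lines in their gene expression response to 6 h of R406 was measured as an interaction. For each gene, the R406 minus DMSO change in DHL4 was subtracted from the same change in DHL6, on the log2 scale. The contrast used 11 of the 29 arrays of the series, and all 12165 genes measured with a single-symbol probe set were tested. DHL4 and DHL6 are established cell lines grown from diffuse large B-cell lymphomas, and R406 is a small-molecule inhibitor of the tyrosine kinase SYK. The 4 groups were DHL4 with DMSO, the solvent (2 arrays), DHL4 with 1 µM R406 for 6 h (3 arrays), DHL6 with DMSO (3 arrays) and DHL6 with 1 µM R406 for 6 h (3 arrays). All groups were grown in RPMI medium with serum. A positive difference means that the DHL6 change lay above the DHL4 change, and a negative one that it lay below. Differences are given as log2 values ± the standard error of the model, and a gene was called at a Benjamini-Hochberg adjusted p below 0.05.

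When the B-cell receptor is engaged, its signalling chains CD79A and CD79B recruit SYK, which passes the signal to calcium release, the ERK and NF-kB pathways and the PI3K-AKT pathway. AKT keeps FOXO transcription factors out of the nucleus, and receptor signals sustain MYC and the synthesis of ribosomes, amino acids and lipids. A second regulator of amino acid genes is ATF4, a transcription factor made when the initiation factor eIF2 is phosphorylated under amino acid shortage or other stress.

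Arrays of the same group had Pearson correlations of 0.982 to 0.996 over genes, and array medians lay between 3.32 and 3.40. The lowest correlations, 0.9817 and 0.9816, were those of the third DHL6 array with R406, and the other pairs gave 0.9938 or more. The third DHL6 array with R406 had the lowest mean, 4.41, against 4.48 to 4.51 in the other arrays compared. The mean log2 level of 10 B-cell markers was 6.49 to 6.76 in the 4 groups, but 3 of them, PAX5, CR2 and FCER2, lay below 4 in every group, between 2.64 and 3.17. Of the markers of other cells, 13 of 14 T-cell genes, 12 of 12 monocyte genes and 13 of 15 fibroblast and endothelial genes did so too. A log2 level below 4 is called near the floor here, because the deposited values compress dim genes toward a common low level and a gene resting there cannot show a fall. No time is labelled for the DMSO arrays. The series' design gives one set of times for drug and solvent together, so drug time and culture time cannot be told apart. Nothing in the labels says that arrays came from separate cultures, and every p-value therefore reflects variation among arrays that may be purely technical.

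The lines differed in their 6 h response at 857 genes, 7.04% of those tested. The DHL6 change lay above the DHL4 change at 375 genes (3.08%) and below it at 482 (3.96%), and 494 differences were at least 2-fold. Taken by itself, DHL4 changed at 1555 genes (12.8%), of which 781 rose (6.42%) and 774 fell (6.36%). DHL6 changed at 1005 (8.26%), of which 382 rose (3.14%) and 623 fell (5.12%). Among the 857 genes, 493 passed the test only in DHL4 and 179 only in DHL6. Both lines passed it in the same direction at 77 and in opposite directions at 60, and neither line did at 48. Their median absolute change was 0.84 in DHL4 and 0.31 in DHL6. The gap between the lines was wider with R406 than in DMSO at 558 of these genes and narrower at 299. Low levels limit what some of these genes could show, since 58 of the 375 genes were near the floor in both DHL6 groups and 40 of the 482 in both DHL4 groups. Of all genes tested, 63.1% were near the floor in at least 1 group and 54.0% in all 4, but of the 857 only 232 were near it in any group. The 7.04% share over all genes is therefore a low mark for lists of mostly brighter genes. No share matched for level was taken. The DHL4 DMSO group has only 2 arrays, and without its replicate 2 the fit called 514 genes in place of 857, with 249 in place of 482 below and 954 in place of 1555 for DHL4. The larger share below was not stable either, since 52.1% lay above without DHL6 R406 replicate 3 and 51.6% without DHL4 DMSO replicate 2.

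**Figure D1:**
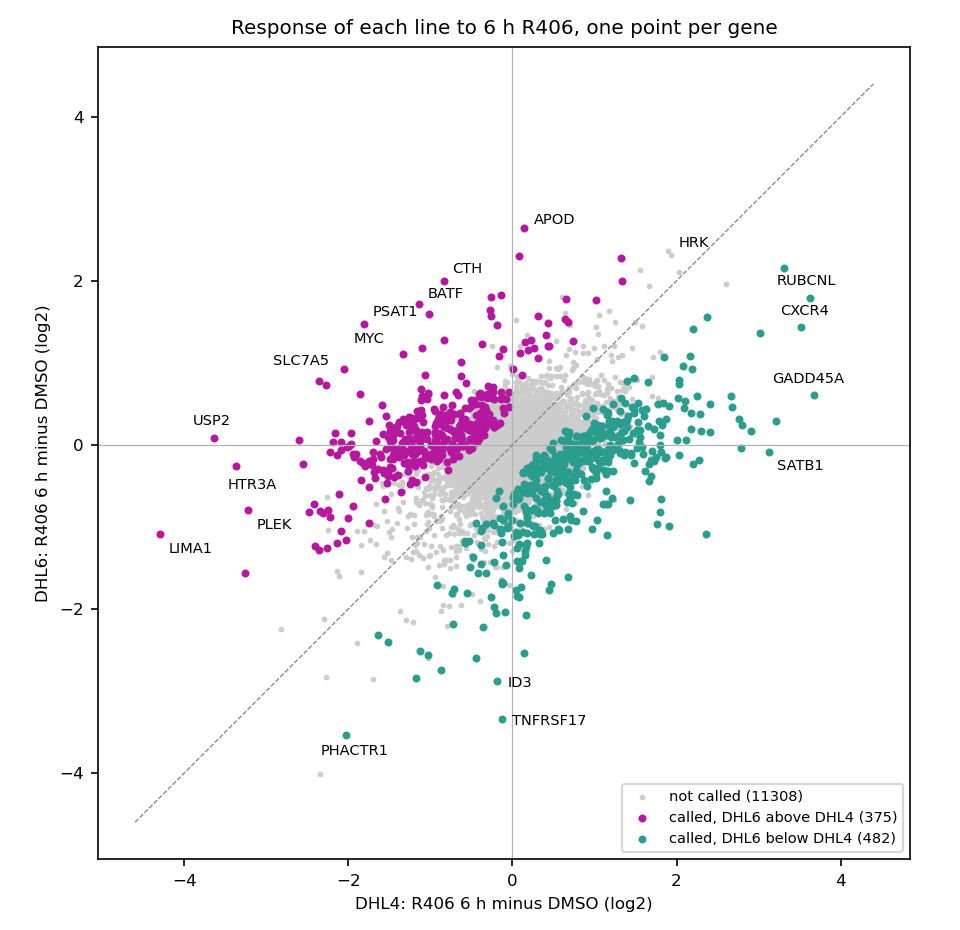
Each point is a gene, with its R406 6 h minus DMSO change (log2) in DHL4 on the x axis and in DHL6 on the y axis, and the dashed line marks equal change. The 375 genes called with DHL6 above lie to the upper left and the 482 called with DHL6 below to the lower right, while HRK lies close to the line with a change near 2 in both.

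Genes of amino acid synthesis and other known targets of ATF4 were among those that differed most often. Of 25 measured members, 14 were called with DHL6 above and 0 below, 56% against 7.04% of all genes. The median difference was 0.93, against 0.0057 over all genes. In DHL4, 11 members fell and 0 rose (median change −0.40), against 6.36% and 6.42% of all genes. In DHL6 10 rose and 1 fell (median 0.35), against 3.14% and 5.12% of all genes. Between 12 and 15 members were called when any 1 array was left out. ATF4 itself differed by 0.94 ± 0.14 (adjusted p = 6.18e-05), with a change of −0.23 in DHL4 and 0.70 in DHL6.

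The promoters of these genes are shown because ASNS and CHAC1 carry the motif that ATF4 binds together with a C/EBP partner. ASNS makes asparagine and CHAC1 degrades glutathione, and AARS1 and IARS1, described below, charge transfer RNAs with alanine and isoleucine. Each line holds 60 bases upstream of the gene's start in RefSeq (GRCh38.p14), read 5′ to 3′ on the strand of the gene, with the motif TGATGNAA (TTNCATCA on the other strand) in capitals. The ASNS window is chr7:97872443-97872502 on the minus strand and the CHAC1 window chr15:40953236-40953295 on the plus strand. The AARS1 window is chr16:70289660-70289719 and the IARS1 window chr9:92293698-92293757, both on the minus strand.
ASNS: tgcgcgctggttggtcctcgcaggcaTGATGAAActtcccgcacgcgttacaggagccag
CHAC1: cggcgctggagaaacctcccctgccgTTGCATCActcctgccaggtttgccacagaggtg
AARS1: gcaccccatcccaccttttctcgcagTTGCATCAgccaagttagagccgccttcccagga
IARS1: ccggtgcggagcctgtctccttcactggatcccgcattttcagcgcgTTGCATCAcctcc
The motif stood in the 250 bases upstream of 190 of the 9711 measured genes with a promoter sequence (2.0%), on either strand. It was found at 3 of 21 promoters in the ATF4 list (14.3%) and at 2 of the 11 whose genes were called. In the list of translation factors and tRNA synthetases, which holds AARS1 and IARS1, 2 of 19 promoters held it (10.5%). Among amino acid transporters 0 of 11 did. Among all genes called, 2.7% of promoters with DHL6 above and 1.7% with DHL6 below held it. ASNS differed by 1.58 ± 0.14 (adjusted p = 2.81e-08) and CHAC1 by 1.97 ± 0.33 (adjusted p = 0.000203). A match is a description of these letters and not evidence of binding.

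PSAT1, ATF5, CTH and CBS had the widest gaps in this group. PSAT1, an enzyme of serine synthesis, read 7.17 and 7.26 in DHL4 with DMSO and 5.55, 5.32 and 5.33 with R406. DHL6 arrays read 6.04, 6.32 and 6.33 with DMSO and 7.74, 7.65 and 7.70 with R406. The arrays of each line did not overlap between DMSO and R406, and the lines moved in opposite directions. The difference was 3.28 ± 0.32, or 9.73-fold (adjusted p = 1.34e-07). CTH, which makes cysteine, read 4.62 and 4.51 falling to 3.85, 3.79 and 3.55 in DHL4, and 5.23, 5.02 and 5.21 rising to 7.33, 7.23 and 6.89 in DHL6. Its difference of 2.83 ± 0.31 (adjusted p = 7.38e-07) came mostly from the rise in DHL6. CBS, the enzyme before CTH in that pathway, fell by 1.85 in DHL4 and rose by 0.63 in DHL6 (difference 2.48 ± 0.26, adjusted p = 3.42e-07). The transcription factor ATF5, a relative of ATF4, fell by 2.35 in DHL4 from 7.38 and 7.36 to 4.94, 5.10 and 5.01. In DHL6 it read 6.63, 6.66 and 6.58 with DMSO and 7.03, 7.39 and 7.78 with R406, a change of 0.78 ± 0.28 that did not pass the test (adjusted p = 0.09), so its difference of 3.14 ± 0.42 (adjusted p = 1.29e-05) rested mostly on DHL4. MTHFD2, a mitochondrial enzyme of folate metabolism, and PYCR1, which makes proline, differed by 1.70 ± 0.17 and 1.90 ± 0.27. Members that were not called included PHGDH, the first enzyme of serine synthesis (0.39, adjusted p = 0.703), ATF3 (0.35, adjusted p = 0.603) and DDIT4 (0.76, adjusted p = 0.0598). PCK2, the mitochondrial enzyme that makes phosphoenolpyruvate, was not in the list, falling by 1.01 in DHL4 and rising by 1.60 in DHL6 (difference 2.61 ± 0.27, adjusted p = 4.5e-07).

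Amino acid transporters showed the same direction, with 5 of 13 called above and 0 below (38.5%, against 7.04% of all genes). Their median difference was 0.77. The leucine transporter subunit SLC7A5 read 7.76 and 7.59 in DHL4 with DMSO and 5.61, 5.47 and 5.77 with R406. DHL6 arrays read 7.38, 7.59 and 7.44 with DMSO and 8.45, 8.52 and 8.23 with R406. The lines thus met at 7.59 in DMSO and were fully separate with R406. The difference was 2.98 ± 0.25, or 7.91-fold (adjusted p = 2.11e-08). The glutamine transporter SLC1A5 differed by 1.64 ± 0.27 and the arginine and lysine transporter SLC7A1 by 1.60 ± 0.14, each falling in DHL4 and rising in DHL6. SLC43A3, counted among the 5 called, is a transporter of nucleobases rather than of amino acids. It differed by 1.84 ± 0.30 through a fall of 1.95 in DHL4 alone. SLC38A2, a transporter of small neutral amino acids, rose in both lines, and its difference was not called (adjusted p = 0.997).

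Translation factors and tRNA synthetases, which load transfer RNAs with amino acids, had the highest share of called members. These were 14 of 23 (60.9%, against 7.04% of all genes), all with DHL6 above (median difference 1.00). In DHL4 17 members fell, against 6.36% of all genes. In DHL6 5 members rose and 2 fell, against 3.14% and 5.12% of all genes. EIF4EBP1, a brake on cap-dependent translation, differed most, changing from 6.84 and 6.71 to 6.01, 6.01 and 5.81 in DHL4 and from 6.62, 6.84 and 6.66 to 7.91, 8.21 and 7.85 in DHL6. Its difference was 2.11 ± 0.18 (adjusted p = 2.11e-08). GARS1, the glycine enzyme, read 10.61 and 10.48 against 9.41, 9.48 and 9.40 in DHL4 and 10.45, 10.51 and 10.33 against 11.12, 11.12 and 11.09 in DHL6. The DMSO arrays of both lines shared 1 range, and the R406 arrays lay on opposite sides of it, with a difference of 1.80 ± 0.13 (adjusted p = 1.8e-09). WARS1 (2.08 ± 0.20), YARS1 (1.63 ± 0.14), AARS1 (1.54 ± 0.21) and IARS1 (1.33 ± 0.15), the enzymes for tryptophan, tyrosine, alanine and isoleucine, were all called. RARS1, HARS1 and KARS1, for arginine, histidine and lysine, were not.

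**Figure D2:**
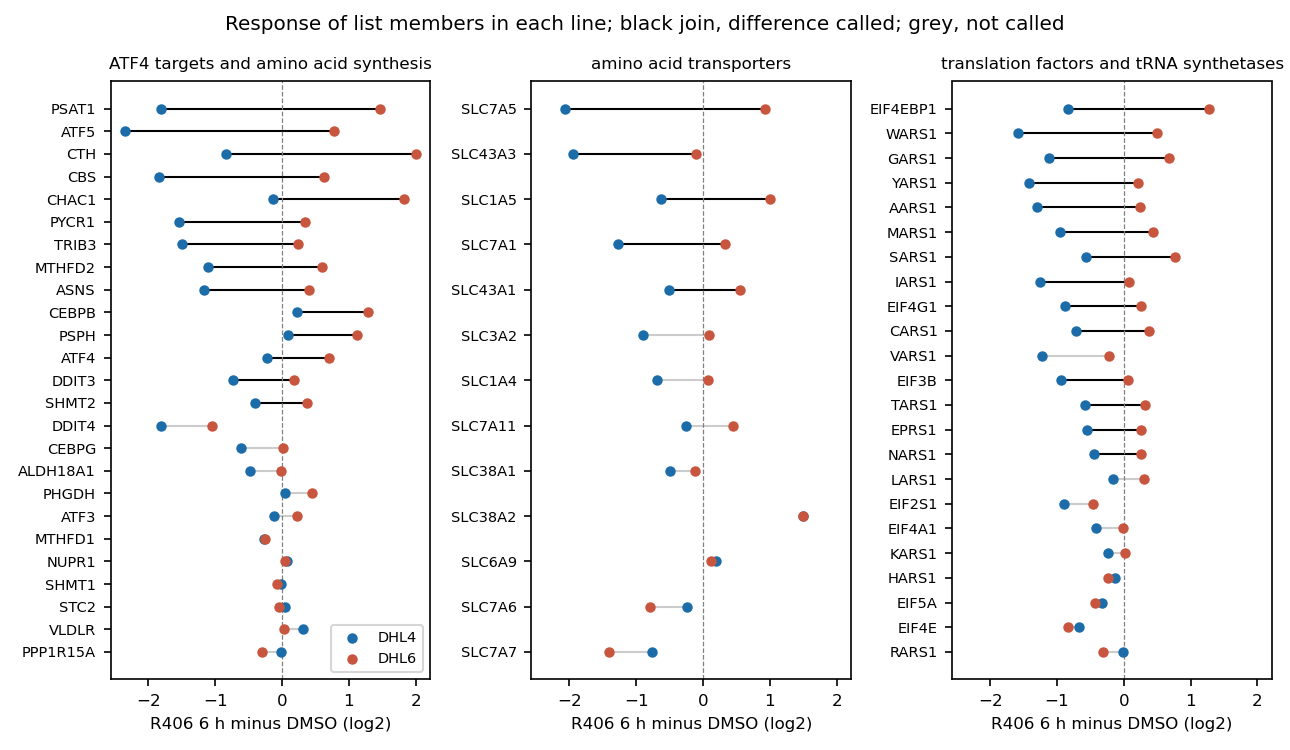
The R406 6 h minus DMSO change (log2, x axis) of every measured member is shown for DHL4 (blue) and DHL6 (red) in the ATF4 and amino acid synthesis list, the amino acid transporters, and the translation factors and tRNA synthetases. A black join marks a called difference, and in each such row the DHL6 point lies to the right of the DHL4 point.

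MYC, the transcription factor that drives growth and ribosome synthesis, moved in opposite directions with little spread. It read 9.98 and 10.00 in DHL4 with DMSO and 8.68, 8.59 and 8.72 with R406. The DHL6 arrays gave 9.35, 9.33 and 9.28 with DMSO and 10.43, 10.47 and 10.39 with R406. DHL4 was the higher line in DMSO and the lower one with R406, and no 2 groups overlapped. The difference of 2.44 ± 0.11 (5.43-fold) had an adjusted p of 2.64e-13. Of its partners and antagonists, MXD3, a repressor that competes with MYC for its partner MAX, rose in DHL4 by 1.80 and was called with DHL6 below (−1.68 ± 0.29, adjusted p = 0.000272).

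Genes of ribosome synthesis and other known MYC targets divided by line as well. Of 38, 19 (50%, against 7.04% of all genes) were called with DHL6 above and 0 below (median difference 0.80). In DHL4 28 of the 38 fell and 0 rose, against 6.36% and 6.42% of all genes, with a median change of −0.99. In DHL6 1 rose and 1 fell, against 3.14% and 5.12% of all genes, with a median of −0.05. Without any 1 array 16 to 18 were called. DDX21, a nucleolar helicase, read 10.07 and 10.00 in DHL4 with DMSO and 7.97, 7.98 and 7.90 with R406, against 10.16, 10.00 and 10.03 and then 10.02, 9.96 and 10.02 in DHL6. Only the DHL4 arrays with R406 stood apart, by a difference of 2.02 ± 0.17 (adjusted p = 2.11e-08). The nucleolar proteins NOP2 (1.66 ± 0.21) and BOP1 (1.64 ± 0.25) and the spermidine synthase SRM (1.66 ± 0.34) followed, as did NOLC1 (1.54 ± 0.21) and DKC1 (1.33 ± 0.16), which handle nucleolar RNA. The cell-cycle kinase CDK4, also in this list, fell by 1.22 in DHL4 and changed by 0.21 in DHL6 (difference 1.43 ± 0.16, adjusted p = 1.32e-06). Of the 31 ribosomal proteins themselves, no member was called in either line, against 12.8% of all genes in DHL4 and 8.26% in DHL6. Their differences lay between −0.15 and 0.21. For the line difference 0 of 31 were called in either direction, against 7.04% of all genes. That 0 comes from limma's test, in which 2061 of all 12165 genes had an unadjusted p below 0.05.

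MYC binds the E-box CACGTG, which reads the same on both strands, and windows of 2 called genes that hold it are given in the same form as above. SLC7A5 is at chr16:87869605-87869664 and SRM at chr1:11060185-11060244, both on the minus strand.
SLC7A5: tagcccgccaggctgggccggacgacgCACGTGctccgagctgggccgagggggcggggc
SRM: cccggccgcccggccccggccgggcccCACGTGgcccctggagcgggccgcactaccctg
CACGTG stood in 805 of the 9711 promoters (8.3%), in 11.4% of those called with DHL6 above and in 8.3% of those called with DHL6 below. Within the ribosome synthesis list 5 of 33 promoters held it, 3 of them at called genes. In the amino acid transporter list, which holds SLC7A5, 2 of 11 promoters held it, both at called genes. It also stood in 2 of the 5 promoters of called FOXO targets, those of CCNG2 and CITED2, which were called with DHL6 below. The forkhead motif GTAAACA, searched on both strands, stood in 207 of the 9711 promoters (2.1%), in 2 of 23 FOXO targets and in 0 of the 5 that were called.

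**Figure D3:**
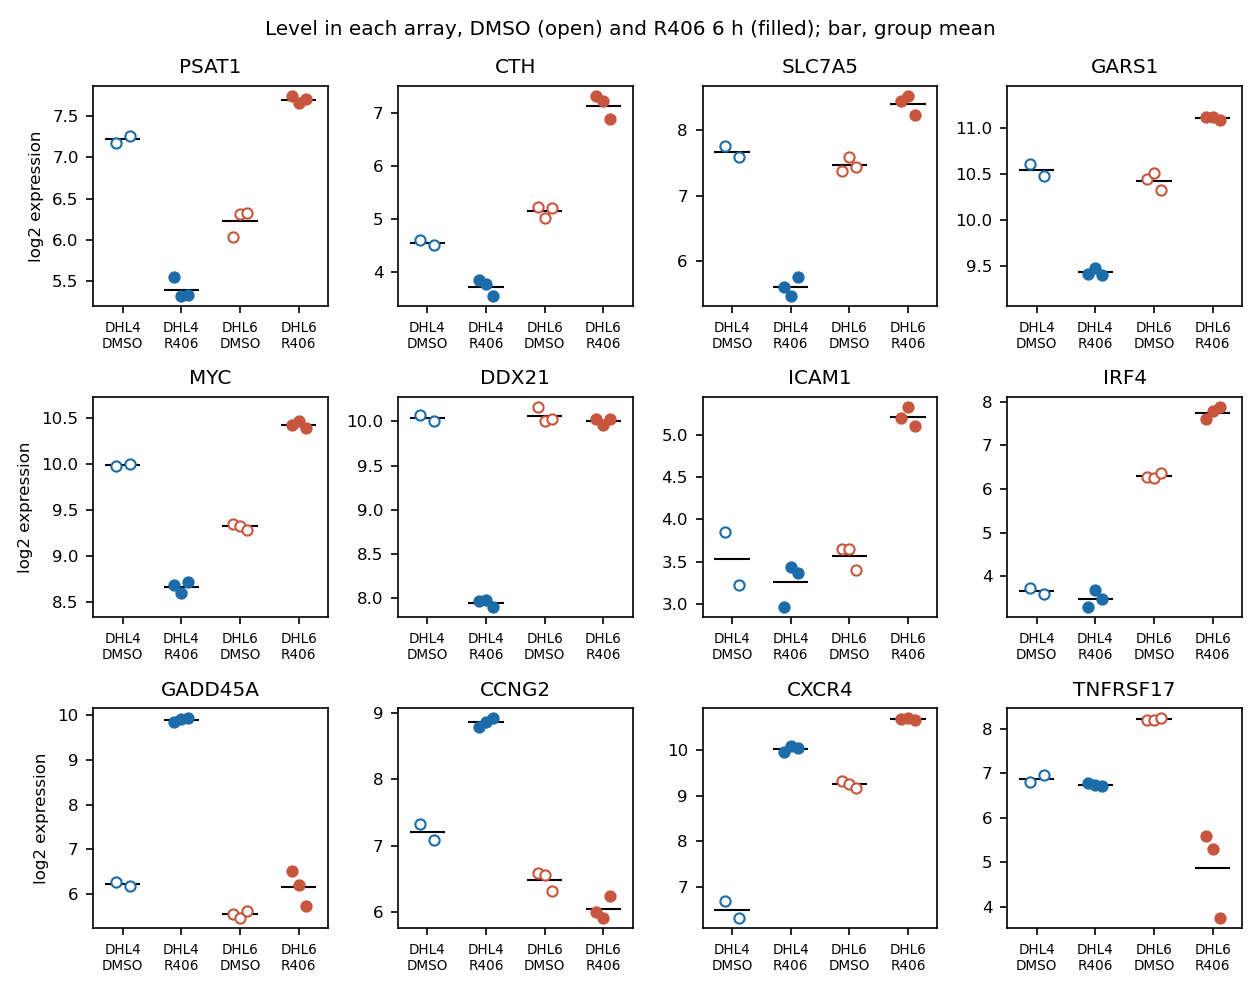
Log2 expression in each array for 12 genes, with DMSO as open and R406 6 h as filled points, DHL4 in blue, DHL6 in red and a bar at each group mean. PSAT1, CTH, SLC7A5, GARS1 and MYC move in opposite directions in the lines, DDX21 moves in DHL4 alone, and ICAM1, IRF4 and TNFRSF17 move in DHL6 alone.

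The 15 largest differences with DHL6 above include genes already described, such as PSAT1 and MYC. Of the 15, 8 moved in opposite directions, 5 passed the test in DHL4 alone, 1 did so in DHL6 alone and 1 fell in both. In 4 of the 15 the DHL6 DMSO mean was near the floor. USP2, a deubiquitinating enzyme, had the largest difference of all genes, 3.73 ± 0.28 (adjusted p = 4.69e-09). It read 6.65 and 6.79 in DHL4 with DMSO and 3.23, 3.03 and 2.95 with R406. In DHL6 it lay between 2.55 and 2.90 in all 6 arrays, where no fall could be seen. HTR3A, a serotonin-gated ion channel, fell by 3.37 in DHL4 from 9.04 and 9.12 and lay between 2.82 and 3.21 throughout DHL6 (difference 3.11 ± 0.21). ITGB2, the beta chain of the leukocyte integrins, fell by 2.61 in DHL4 and lay between 2.86 and 3.26 in DHL6 (2.67 ± 0.40). For these 3 genes the difference is therefore that of a gene expressed in 1 line.

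The other genes described here were expressed in both lines in DMSO, except APOD. LIMA1, an actin-binding protein, fell in both, from 8.73 and 8.35 to 4.31, 4.31 and 4.12 in DHL4 and from 4.96, 4.95 and 5.36 to 4.10, 3.72 and 4.20 in DHL6. The difference was 3.20 ± 0.31 (adjusted p = 1.24e-07), and DHL4 started higher. With R406 the arrays of the lines overlapped at levels close to the floor, which limits the fall that could be seen. A role of the starting level was not tested. PLEK, a protein kinase C substrate of blood cells, started at close levels, 8.15 and 8.18 in DHL4 and 7.92, 8.04 and 8.07 in DHL6. With R406 it read 4.89, 5.41 and 4.54 in DHL4 and 7.19, 7.19 and 7.25 in DHL6 (difference 2.42 ± 0.38, adjusted p = 0.000117). DHL4 was thus slightly the higher line in DMSO and clearly the lower one with R406. RGS16, which shortens G-protein signals, fell by 2.27 in DHL4 and rose by 0.73 in DHL6 (3.0 ± 0.29). BATF, an AP-1 family transcription factor of lymphocytes, fell by 1.14 in DHL4 and rose by 1.71 in DHL6, from 6.77, 6.96 and 6.96 to 8.62, 8.55 and 8.68 (2.85 ± 0.45, adjusted p = 0.000116). APOD, a lipid-carrying protein, rose in DHL6 alone, from 4.49, 4.08 and 4.65 to 6.88, 6.79 and 7.48 (2.50 ± 0.41), and was near the floor in DHL4, between 2.70 and 3.15 in all 5 arrays.

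NF-kB subunits and targets split, with 8 of 27 called with DHL6 above and 4 below. Together these were 44.4% of the members, against 7.04% of all genes. Those above included the inhibitors NFKBIE (1.66 ± 0.30) and NFKBIA (1.05 ± 0.16), the adhesion molecule ICAM1 and the transcription factor IRF4. ICAM1 read 3.85 and 3.22 with DMSO and 2.96, 3.44 and 3.37 with R406 in DHL4, near the floor. In DHL6 it rose from 3.65, 3.65 and 3.40 to 5.20, 5.33 and 5.11, and the difference was 1.92 ± 0.26 (adjusted p = 1.91e-05). IRF4, which promotes plasma cell formation, rose in DHL6 from 6.27, 6.26 and 6.37 to 7.60, 7.78 and 7.88 and lay between 3.29 and 3.74 in DHL4 (1.64 ± 0.39, adjusted p = 0.0083). The 4 members below were LTB (−1.56 ± 0.15), REL (−1.18 ± 0.27), TNF (−1.17 ± 0.28) and LTA (−0.72 ± 0.20). LTB, a membrane-bound cytokine, rose by 1.87 in DHL4, whereas TNF fell by 1.10 in DHL6. The count above was 4 without DHL4 DMSO replicate 1, where NFKB2 read 1.25 ± 0.39 (adjusted p = 0.0649) in place of 1.60 ± 0.35 and CD40 0.74 ± 0.22 (adjusted p = 0.0501) in place of 0.97 ± 0.20. The count below was 2 without DHL4 DMSO replicate 2.

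Genes that FOXO factors are known to switch on leaned the other way. Of 26 measured, 6 were called with DHL6 below and 1 above, 26.9% against 7.04% of all genes. The median difference was −0.26, and the median change was 0.26 in DHL4 and 0.09 in DHL6. GADD45A, a stress-induced growth arrest gene, read 6.27 and 6.19 in DHL4 with DMSO and 9.86, 9.91 and 9.94 with R406. In DHL6 it read 5.56, 5.46 and 5.63 and then 6.51, 6.21 and 5.74, a change of 0.60 ± 0.23 that did not pass the test (adjusted p = 0.126). The groups of DHL6 did not overlap, but the rise in DHL4 was larger by 3.07 on the log2 scale (difference −3.07 ± 0.35, adjusted p = 1.47e-06). CCNG2, a cyclin linked to growth arrest, rose from 7.33 and 7.08 to 8.79, 8.87 and 8.93 in DHL4 and fell from 6.58, 6.56 and 6.31 to 5.99, 5.90 and 6.23 in DHL6 (−2.10 ± 0.20, adjusted p = 1.15e-07). CITED2, a transcriptional coregulator, also rose in DHL4 (1.44) and fell in DHL6 (−0.67), with a difference of −2.11 ± 0.31. FOXO1 itself differed by −1.01 ± 0.17 (adjusted p = 0.00033), with a rise of 0.81 in DHL4. PIK3IP1, an inhibitor of PI3K, and the CDK inhibitor CDKN1B (p27) rose in DHL4 by 1.79 and 2.02 and differed by −1.49 ± 0.33 and −1.46 ± 0.39. Neither call was firm: without DHL4 DMSO replicate 2 the adjusted p was 0.0598 for PIK3IP1 and 0.115 for CDKN1B, and CDKN1B also lost its call without DHL6 DMSO replicate 1 (adjusted p = 0.0623), DHL4 R406 replicate 2 (0.059) or DHL6 R406 replicate 3 (0.0667). The member above was TRIB1 (1.36 ± 0.35). KLF2 (−0.25 ± 0.25, adjusted p = 0.718) and BCL2L11, which encodes the death inducer BIM (0.11 ± 0.27, adjusted p = 0.918), were not called, and both were dim. TXNIP was not called at −0.50 ± 0.24 (adjusted p = 0.301), but another of its probe sets was, at −1.22 (adjusted p = 0.0064).

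Of 24 homing receptors and G-protein regulators that tune them, 7 were called with DHL6 below and 2 above, the latter being RGS16 and ITGB2. That is 37.5% of the members, against 7.04% of all genes. CXCR4, the receptor that draws B cells to the chemokine CXCL12, rose in both lines. It read 6.69 and 6.32 in DHL4 with DMSO and 9.95, 10.09 and 10.04 with R406, against 9.32, 9.25 and 9.18 and then 10.68, 10.70 and 10.66 in DHL6. The starting gap between the lines narrowed with R406, and the difference was −2.09 ± 0.18 (adjusted p = 2.27e-08). RGS1, which dampens chemokine receptors, rose by 1.81 in DHL4 and fell by 0.67 in DHL6 (−2.47 ± 0.31). It was near the floor in DHL4 with DMSO, at 3.22 and 2.91. Its other probe sets were not called, at −0.46 (adjusted p = 0.62, mean level 4.39) and −0.03 (adjusted p = 0.976, mean level 2.57). RGS13 (−1.47 ± 0.21) and RGS2 (−1.42 ± 0.35) fell in DHL6 without passing the test in DHL4. The count below was 4 without DHL4 DMSO replicate 2.

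The 15 largest differences with DHL6 below held 8 genes called in DHL4 only, 4 called in both lines in opposite directions and 3 in DHL6 only. The DMSO mean was near the floor in DHL4 for 5 of the 15 and in DHL6 for 4. SATB1, an organiser of chromatin in lymphocytes, rose from 4.65 and 4.68 to 7.82, 7.77 and 7.78 in DHL4 and lay between 3.58 and 3.82 in all 6 DHL6 arrays (−3.21 ± 0.29, adjusted p = 5.65e-08). VPREB1, part of the surrogate light chain of the pre-B-cell receptor, rose from 2.96 and 2.90 to 6.04, 5.03 and 6.07 in DHL4 and stayed between 2.63 and 3.17 in DHL6 (−2.81 ± 0.38). MBNL2, a regulator of RNA splicing, rose from 3.72 and 3.76 to between 6.30 and 6.71 in DHL4 and stayed near the floor in DHL6, between 3.24 and 3.90 (−2.46 ± 0.37, adjusted p = 6.93e-05). These 3 genes were thus seen to respond in 1 line from a low start. PCDH9, a cell adhesion protein, rose by 3.22 in DHL4 from 5.18 and 4.78, while DHL6 was already at 8.62, 8.70 and 8.65 with DMSO and 8.93, 9.22 and 8.66 with R406 (−2.93 ± 0.25). EIF2AK3, the kinase PERK that phosphorylates eIF2 under endoplasmic reticulum stress, rose from 5.78 and 4.83 to 8.09, 8.27 and 8.28 in DHL4. In DHL6 it read 7.23, 6.98 and 6.98 and then 7.64, 7.22 and 6.84, with overlapping groups (difference −2.74 ± 0.30, adjusted p = 6.87e-07). The interferon-induced genes TRIM22 (−2.73 ± 0.23) and OAS1 (−2.56 ± 0.42) were also among the 15. OAS1 was near the floor in DHL4 with DMSO, at 3.99 and 3.95, and in all 6 DHL6 arrays, between 3.03 and 3.98. Of the 31 measured interferon response genes, 3 were called in any direction, 9.7% against 7.04% of all genes. TSC22D3, the glucocorticoid-induced leucine zipper GILZ, rose by 1.80 in DHL4 and fell by 0.82 in DHL6 (−2.61 ± 0.27). RUFY3, an adaptor in the transport of vesicles, rose by 1.91 in DHL4 and fell by 0.99 in DHL6 (−2.90 ± 0.29). RAPGEF2, an activator of RAP1, had the largest negative estimate, −3.45 ± 0.69 (adjusted p = 0.00166), but DHL6 DMSO replicate 3 read 6.45 where replicates 1 and 2 read 3.39 and 3.45. Without that array the difference was −2.44 ± 0.33 (adjusted p = 3.24e-05).

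**Figure D4:**
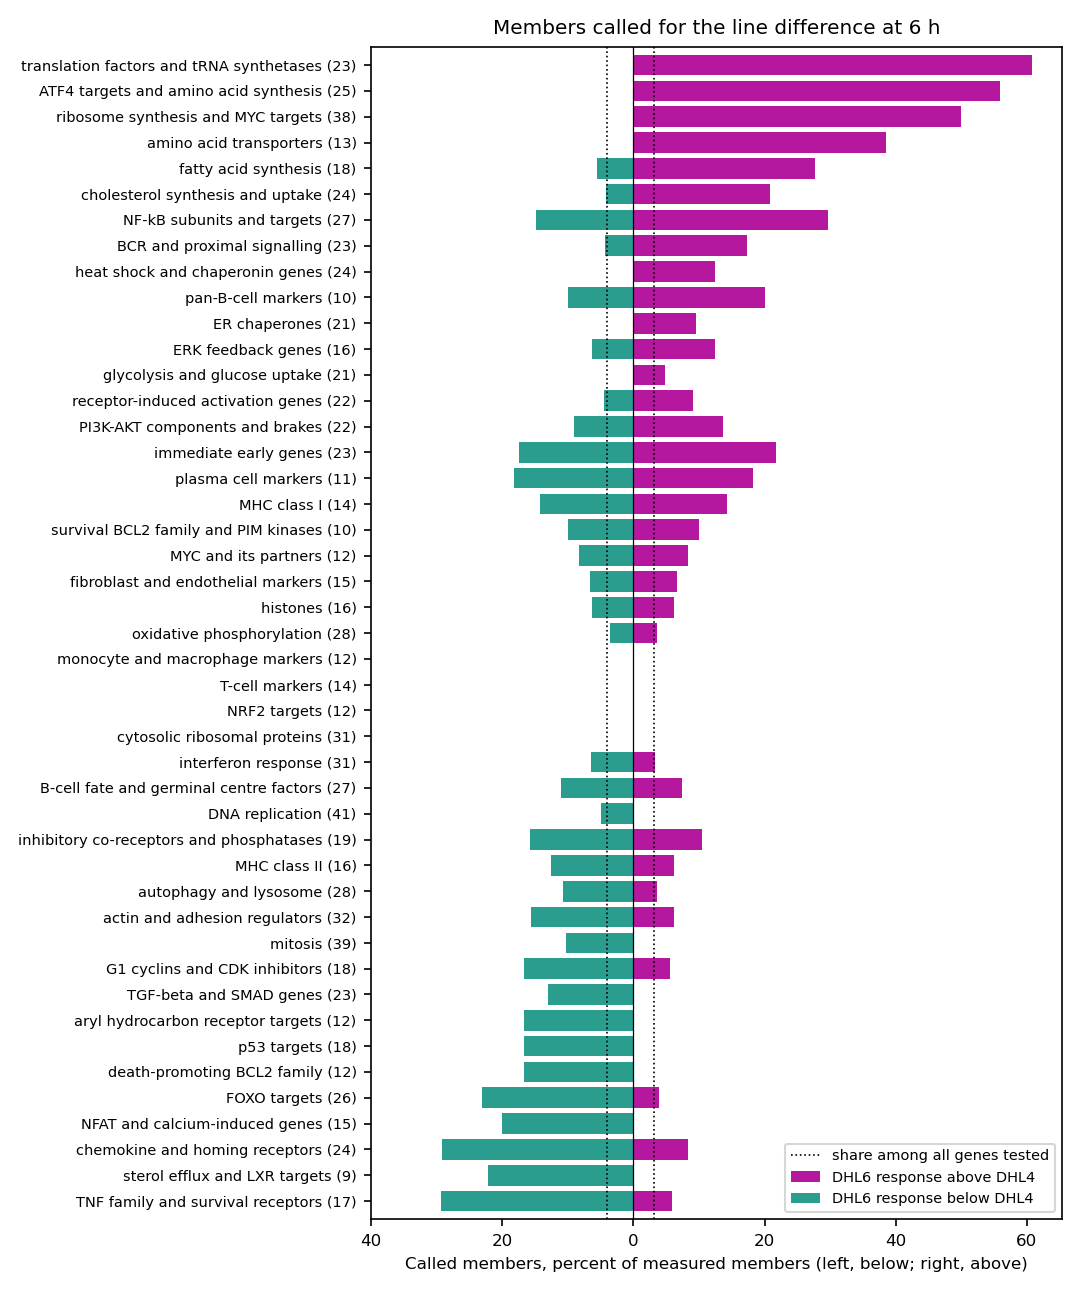
For each gene list, with its number of measured members in parentheses, bars show the percent of members called with DHL6 above DHL4 (right) or below (left), and dotted lines show the shares over all genes, 3.08% and 3.96%. Lists are ordered by direction, with translation factors and tRNA synthetases at the top and TNF family and survival receptors at the bottom.

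A smaller set of genes fell in DHL6 alone. TNFRSF17, the survival receptor BCMA of antibody-secreting cells, read 6.80 and 6.95 in DHL4 with DMSO and 6.79, 6.73 and 6.71 with R406. In DHL6 it read 8.20, 8.20 and 8.24 with DMSO and 5.59, 5.30 and 3.74 with R406, all below the DMSO arrays but far apart. The difference was −3.21 ± 0.63 (adjusted p = 0.00134), and −2.64 ± 0.56 without DHL6 R406 replicate 3 (adjusted p = 0.00353). ID3, an inhibitor of E-protein transcription factors, fell in DHL6 from 7.96, 8.17 and 8.15 to 5.35, 5.71 and 4.58 and ranged from 7.43 to 7.91 in DHL4 (−2.70 ± 0.28, adjusted p = 3.94e-07). LY9, a receptor of the SLAM family, fell in DHL6 from 6.05, 5.80 and 5.47 to 3.03, 3.77 and 2.90 (−2.68 ± 0.41). CD79A, a signalling chain of the B-cell receptor, fell from 9.41, 9.51 and 9.34 to 8.29, 8.35 and 8.28 in DHL6 and lay between 8.79 and 8.86 in DHL4 (−1.13 ± 0.19, adjusted p = 0.000277). BAX, a pore-forming death protein, fell by 2.05 in DHL6 and differed by −1.86 ± 0.41 (adjusted p = 0.00436). In bulk RNA, fewer cells that carry a transcript and less of it per cell cannot be told apart. In the TNF family and survival receptor list as a whole, 5 of 17 were called below and 1 above. These are 35.3% of the members, against 7.04% of all genes. Without DHL4 R406 replicate 3 or DHL6 R406 replicate 2, 3 were called below. Fewer were also called below without either DHL4 DMSO array, which leaves 1 array in that group.

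Immediate early genes, the first targets of receptor signals, went both ways, with 5 of 23 called above and 4 below. Together these were 39.1% of the members, against 7.04% of all genes. SRF (1.55 ± 0.25) and IER2 (1.47 ± 0.17) fell in both lines but further in DHL4, and IER5 (1.47 ± 0.28) fell in DHL4 and rose by 0.84 in DHL6. EGR1, a zinc-finger factor induced through ERK, was near the floor in DHL4, at 2.99 to 3.41, and fell in DHL6 from 6.17, 6.05 and 5.76 to 4.72, 4.08 and 4.11. Its difference of −1.57 ± 0.44 (adjusted p = 0.0268) was called in 3 of the 11 fits that left out an array. FOS differed by −1.03 ± 0.18 with a fall of 0.70 in DHL6. Of the members below, 1 to 3 were called in the fits that left out an array, the fewest without DHL4 DMSO replicate 2. The ERK phosphatase DUSP2 (1.52 ± 0.36) fell by 2.11 in DHL4. In DHL6 it read 6.30, 6.35 and 6.23 with DMSO and 5.79, 5.90 and 5.40 with R406, lower in every array, but the change of −0.60 did not pass the test (adjusted p = 0.146). DUSP7 (1.22 ± 0.24) fell by 1.49 in DHL4 and was near the floor in DHL6, where a fall could not be seen. DUSP6, a usual readout of ERK, was dim and not called (0.25 ± 0.21, adjusted p = 0.658).

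Receptor signalling components went both ways, from −1.13 to 1.56, with 4 of 23 called above and 1 below. These are 21.7% of the members, against 7.04% of all genes, and the median difference was 0.01. Of the 23 members, 20 had a mean level of at least 4, so the share over all genes is a low mark here. SYK, the target of R406, rose in both lines, from 7.43 and 7.39 to 8.05, 8.08 and 8.01 in DHL4 and from 5.40, 5.23 and 4.84 to 6.85, 6.85 and 6.39 in DHL6. The difference of 0.90 ± 0.26 (adjusted p = 0.0311) was called in only 3 of the 11 fits that left out an array, with values between 0.74 and 1.05. RASGRP1, an activator of RAS, fell by 1.23 in DHL4 and was near the floor in DHL6 with DMSO (1.56 ± 0.18). CD79B (0.77 ± 0.15) rose in both lines and more in DHL6, opposite in sign to its partner CD79A, and the co-receptor subunit CD81 (0.79 ± 0.14) rose in DHL6. LYN, BTK, BLNK and PLCG2 differed by −0.05, −0.02, −0.16 and 0.17 and were not called. Among brakes on the receptor, the ubiquitin ligase CBLB rose in DHL4 from 4.29 and 3.34 to 5.84, 5.90 and 5.80 and lay between 7.32 and 7.67 in DHL6 (−2.16 ± 0.25, adjusted p = 1.87e-06). The inhibitory Fc receptor FCGR2B fell in DHL4 by 1.49 and was near the floor in DHL6 (1.32 ± 0.20).

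Transcripts of many lipid synthesis genes fell in both lines, where 6.36% of all genes fell in DHL4 and 5.12% in DHL6. Of 24 cholesterol genes, 16 fell in DHL4 and 12 in DHL6, and the DHL4 change was called the lower one at LSS (1.42 ± 0.21), DHCR7 (1.35 ± 0.31), SQLE (0.89 ± 0.16) and CYP51A1 (0.80 ± 0.22), all enzymes of the pathway. The member above that is no enzyme, SCAP, senses sterols and escorts the transcription factor SREBP to its site of activation (0.97 ± 0.24, adjusted p = 0.0114, and 0.85, adjusted p = 0.102, without DHL4 DMSO replicate 2). DHCR7 lost its call without DHL4 DMSO replicate 2 (1.20 ± 0.36, adjusted p = 0.0627). HMGCS1, the enzyme that begins the pathway, fell by 2.14 in DHL4 and by 1.54 in DHL6, and its difference was not called (0.60 ± 0.21, adjusted p = 0.0939). In all, 5 of the 24 were called above and 1 below, 25% against 7.04% of all genes. Fewer were called above without DHL4 DMSO replicate 2, which leaves 1 array in that group. The fatty acid desaturase SCD fell from 9.64 and 9.79 to 7.75, 7.77 and 7.80 in DHL4 and from 10.35, 10.26 and 10.24 to 9.63, 9.49 and 9.49 in DHL6 (1.20 ± 0.19, adjusted p = 0.000119). Of 18 fatty acid genes, 10 fell in DHL4 and 7 in DHL6. For the line difference 5 were called above and 1 below, 33.3% against 7.04% of all genes. Only 1 was called above without DHL6 DMSO replicate 3, and 3 without DHL6 DMSO replicate 2, DHL4 R406 replicate 3 or DHL6 R406 replicate 1. Fewer were also called above without either DHL4 DMSO array, which leaves 1 array in that group. That 1 below was LPIN1, a phosphatase of lipid synthesis, which fell by 1.41 in DHL6 alone (−1.53 ± 0.23).

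Mitosis genes were higher with R406 more often in DHL4: 25 of 39 rose there and 9 in DHL6, and 0 fell in either. Of all genes, 6.42% rose in DHL4 and 3.14% in DHL6. All 39 had a mean level of at least 4, so shares over all genes are a low mark here. The median difference was −0.48, and 4 members (10.3%) were called, against 7.04% of all genes. All 4 were called with DHL6 below, the direction of 3.96% of all genes. Only 2 were called without DHL6 DMSO replicate 1 or DHL4 R406 replicate 3. Fewer were also called without DHL4 DMSO replicate 2, which leaves 1 array in that group. CDC25C, a phosphatase that starts mitosis, rose from 4.06 and 4.26 to 6.58, 6.31 and 6.36 in DHL4 and read 3.60, 3.23 and 3.61 and then 4.23, 4.18 and 3.82 in DHL6 (−1.66 ± 0.29, adjusted p = 0.000328). HMMR, a spindle protein, rose by 1.73 in DHL4 (−1.53 ± 0.21). The chaperone HSPA5 of the endoplasmic reticulum fell in both lines, by 2.27 in DHL4 and by 1.26 in DHL6 (1.00 ± 0.14, adjusted p = 1.81e-05), and IFI30, a reductase of antigen processing, by 3.26 and 1.57 (1.69 ± 0.18). The pan-B marker MS4A1 (CD20) fell by 2.03 in DHL4 and by 1.16 in DHL6, a difference of 0.87 ± 0.14 (adjusted p = 0.000117).

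Several genes of the death, germinal centre and receptor pathways had no called difference. HRK, a death activator of the BCL2 family, rose by 1.93 in DHL4 and by 2.31 in DHL6 (difference 0.38 ± 0.34, adjusted p = 0.674). It read 3.66 and 3.54 against 5.28, 5.75 and 5.56 in DHL4 and 4.53, 4.55 and 4.77 against 6.24, 7.29 and 7.26 in DHL6. BCL6, a repressor that defines germinal centre B cells, fell by 0.60 in DHL4 and by 0.42 in DHL6 (0.19 ± 0.18, adjusted p = 0.718). PRKCB, the protein kinase C of the receptor pathway, differed by −0.76 ± 0.34 (adjusted p = 0.249) and the survival gene BCL2A1 by −0.98 ± 0.33 (adjusted p = 0.0739). CCND2, which encodes cyclin D2, was near the floor in all 4 groups (0.47 ± 0.23, adjusted p = 0.322). A test that misses the threshold does not show equal responses: the largest difference not called was 1.90 and the smallest called 0.39.

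The same interaction was taken at the other R406 times, against the same DMSO arrays, and called 214 genes at 2 h (1.76%), 1989 at 24 h (16.4%) and 618 at 48 h (5.08%). Because the DMSO arrays are shared, values are given side by side only. MYC differed by 2.27 at 2 h, 2.44 at 6 h, 2.34 at 24 h and 0.56 at 48 h, each called. USP2 differed by 3.84, 3.73, 3.78 and 1.89. PSAT1 read 0.91 at 2 h (adjusted p = 0.204), 3.28 at 6 h, 1.86 at 24 h and 0.63 at 48 h (adjusted p = 0.299), and ATF5 −0.06 (adjusted p = 0.988), 3.14, 2.94 and 1.93. EIF4EBP1 and WARS1 were likewise not called at 2 h, at 0.06 and −0.37, and were called at 24 h, at 2.69 and 1.79. CXCR4 read −1.99, −2.09, −3.30 and −0.27 (adjusted p = 0.454), and GADD45A −2.03, −3.07, −2.76 and 0.97 (adjusted p = 0.115). ICAM1 and IRF4 were called at 6 h only, with 24 h values of 0.21 (adjusted p = 0.743) and −0.38 (adjusted p = 0.66). TSC22D3 reached −5.92 at 24 h and HTR3A 5.73. APOD read −0.85 at 24 h (adjusted p = 0.196) and 4.45 at 48 h (adjusted p = 2.3e-07), and HRK, not called at 6 h, read 1.98 at 2 h, −1.69 at 24 h and 3.05 at 48 h, each called.

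**Figure D5:**
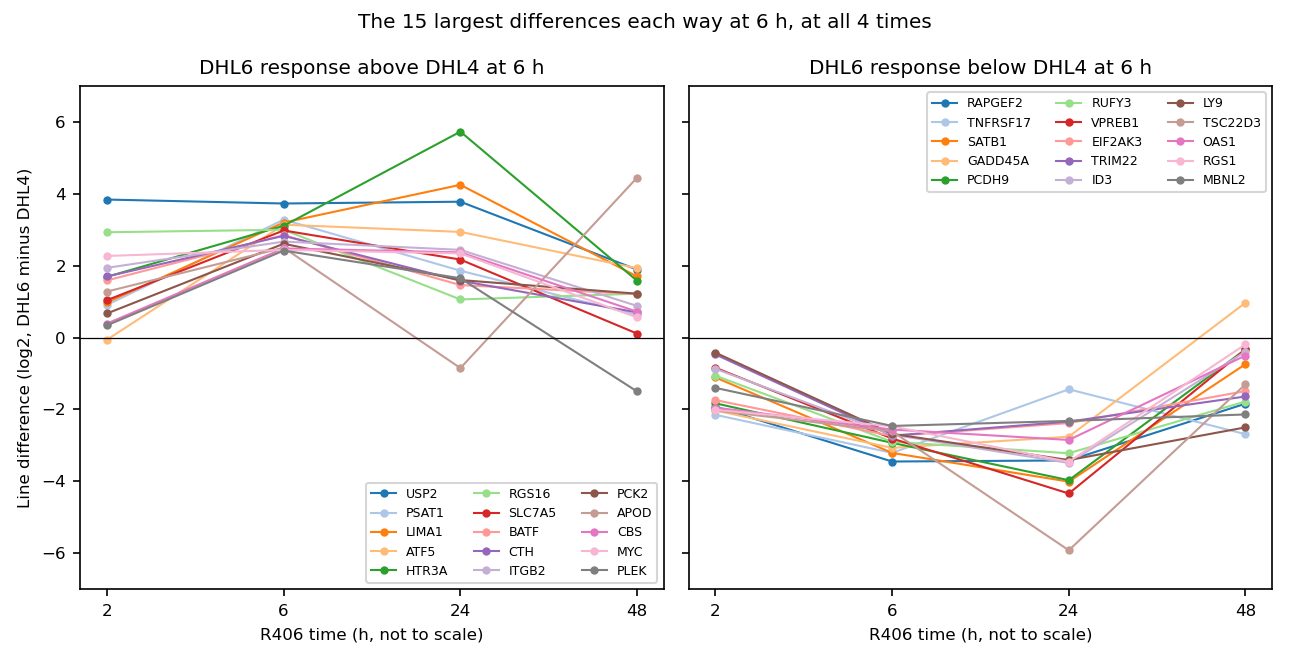
The line difference (log2, DHL6 change minus DHL4 change) of the 15 largest differences each way at 6 h is plotted at 2, 6, 24 and 48 h of R406, each against the same DMSO arrays. Points at 6 h are those that chose the genes, most lines lie nearer 0 at 48 h than at 6 h, and TSC22D3 reaches −5.92 and HTR3A 5.73 at 24 h.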

How the data were processed

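Expression was measured on Affymetrix human genome arrays. The deposited log2 values were made by the authors with RMA, per the submitters' processing notes. Its version is not given in the sources used here. RMA compresses dim probe sets, so their changes are understated. Of 22277 probe sets, 19724 carried 1 symbol, 568 several and 1923 none in the platform annotation, and 62 were controls. Each gene took its probe set of highest mean, which gave 12165 genes.

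Group means of all 10 groups (29 arrays) were fitted with limma 3.58.1 in R 4.3.3 (lmFit, eBayes; 19 residual and 5.05 prior degrees of freedom), two-sided, with Benjamini-Hochberg adjustment over all genes. Scripts were tested on simulated data. The text names the 15 largest called differences each way, 16 genes always reported and, from each of 45 gene lists, at most 4 called members, some of them given only within the counts. Other list members given with values were chosen after their values were seen. Members and lists were chosen with earlier results of these data known, and lists were not tested as sets. Alternatives covered scaling, a filter on dim genes, the arrays fitted, probe sets, the prior, a replicate block and leaving out each array. Same-numbered arrays of different groups had deviations correlated between −0.15 and 0.23 (above 0.1 in 3 of 15 pairs), so the numbers were not taken to pair them. Promoter sequences are from RefSeq. The number of arrays limits the precision.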

Additional observations from a re-analysis of the deposited data

Results flagged for a closer look

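The interaction itself marks genes whose response differed between the lines, 857 in all. Among the genes named, 24 were called in both lines in opposite directions, so that every one of them fell in one line and rose in the other. Those that fell in DHL4 and rose in DHL6 were PSAT1 (3.28), RGS16 (3.0), SLC7A5 (2.98), BATF (2.85), CTH (2.83), PCK2 (2.61), CBS (2.48), MYC (2.44), EIF4EBP1 (2.11), WARS1 (2.08), GARS1 (1.80), SLC1A5 (1.64), SLC7A1 (1.60), DEPTOR (1.27), CYC1 (1.03) and PFKP (0.94). Those that rose in DHL4 and fell in DHL6 were RUFY3 (−2.90), TRIM22 (−2.73), TSC22D3 (−2.61), RGS1 (−2.47), CITED2 (−2.11), CCNG2 (−2.10), SKIL (−1.70) and LGALS1 (−1.29).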

How the results depend on the processing

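The count of 857 differences was 794 to 1239 under the scaling, filter, probe set, prior and array choices, and 514 to 864 when 1 array was left out (above 257 to 379, below 249 to 526; DHL4 alone 954 to 1699, DHL6 alone 731 to 1010). The lowest counts for the difference, for genes below and for DHL4 came without DHL4 DMSO replicate 2, which leaves that group 1 array, assumed to vary like the other groups. Fits of all probe sets, which test more features, called 2364 in DHL4 and 1531 in DHL6. The share with DHL6 above was 40.2% to 49.7% under settings that kept all arrays compared. It passed 50% without DHL6 R406 replicate 3 (52.1%) or DHL4 DMSO replicate 2 (51.6%), so which direction held more genes depended on these arrays. With the replicate number as a block within each line 820 were called, and 885 with it shared by both lines, and 6 and 4 named genes lost their call. No named gene that was called reversed its direction under these alternatives. Of 134 called named genes, 89 were called under every alternative that gave them a value and 45 lost the call in at least 1. Those lost most often were PIM2, HLA-DRA, CCT6A, FOXP1, POLA1, DDB2 and NUSAP1. Of 135 other probe sets of called named genes, 51 were called with the same sign, 1 of HLA-C with the opposite sign, and 83 were not called, 63 of them with a mean below 4.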

Other observations

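Antigen presentation genes went both ways between the lines. HLA-B and HLA-C, class I heavy chains, fell in DHL4 by 0.93 and 0.80 and gave differences of 0.90 ± 0.16 and 0.87 ± 0.21. HLA-C lost its call without DHL4 DMSO replicate 2 (0.80 ± 0.25, adjusted p = 0.0742), and probe sets of these genes can share near-identical sequence. HLA-DMB, a chaperone of class II peptide loading, fell in DHL6 by 0.89 (−1.06 ± 0.15, adjusted p = 3.22e-05), from 10.39, 10.38 and 10.33 to 9.45, 9.52 and 9.46, and lay between 8.44 and 8.71 in DHL4. RUBCNL, an autophagy gene, rose in both lines, from 7.09 and 7.17 to 10.77, 10.68 and 10.81 in DHL4 and from 8.36, 8.45 and 8.35 to 10.23, 10.21 and 10.09 in DHL6 (−1.83 ± 0.17). DEPTOR, an inhibitor of mTOR, fell by 0.66 in DHL4 and rose by 0.61 in DHL6, and its line difference read 4.19 at 24 h. The fibroblast gene DCN, which encodes decorin, was high in DHL4 with DMSO at 8.34 and 8.51, fell there by 1.97 and was near the floor in DHL6 (1.98 ± 0.24).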
